A study of Mus musculus with 2 samples.

Results

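Oxidative phosphorylation in the mitochondrion is carried out by 4 enzyme complexes built from subunits of both genomes. A set of nuclear genes for subunits of these complexes is described here in the embryonic mouse cochlea. They were chosen by symbol, as Ndufa, Ndufb, Ndufc, Ndufs or Ndufv with a number, Uqcr, Cox4 to Cox8 and Atp5, without symbols marked as pseudogenes. Subunit genes with symbols of other forms, such as Cyc1 and Ndufab1, are not in the set. Of the 32285 genes counted, 80 fit, and 76 of them had at least 50 UMIs (unique molecular identifiers, 1 per captured transcript) over both libraries. The 4 left out by that minimum were Cox8b with 0 UMIs, Cox8c with 1, Cox6a2 with 14 and Cox7b2 with 21, which are known as heart and skeletal muscle or testis forms. Ndufb1-ps, left out by its symbol, had 33840 UMIs in the mutant library and 19154 in the wild-type library. The 76 genes comprise 37 of complex I, 8 of complex III, 14 of complex IV and 17 of complex V. Ndufa4 is counted under complex I by its symbol, although its protein is now regarded as a subunit of complex IV.

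Complex I oxidises NADH and complex III passes the electrons on to cytochrome c. Complex IV, cytochrome c oxidase, hands them to oxygen, and the proton gradient that results drives ATP synthase, complex V. A few core subunits of each are encoded by mitochondrial DNA (the mt- genes) and all others are made in the cytosol and imported. In the cochlea the demand on this machinery is known to be high in the stria vascularis, whose marginal cells pump potassium, and in neurons and hair cells.

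The tissue came from mouse embryos at E16.5 on a mixed 129/SvEv and C57BL/6N background. The mutant library, Emx2Cre;Ptch1f/f, is meant to lose Ptch1, the receptor that restrains Hedgehog signalling, in cells that express Cre from Emx2. The other library is labelled wild type. Each library pooled 8 cochleae and was sequenced as 10x Genomics 3′ single-cell RNA, and the series asks how Ptch1 and Hedgehog signalling bear on marginal cells and the stria vascularis. Each genotype is represented by 1 library, so differences between genotypes are given without tests or replicate error. All intervals are exact 95% intervals that cover counting error only.

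The mutant library held 12326 barcodes with 100135532 UMIs and the wild-type library 6500 barcodes with 61130806 UMIs. After filtering, 8670 mutant and 6108 wild-type barcodes were kept, and 25 barcode sequences occurred in both deposited libraries. The deposited mutant barcodes reached down to 500 UMIs and the wild-type ones to 3352. Median mitochondrial share over all deposited barcodes was 4.29% in the mutant library and 2.39% in the wild type. Among barcodes past the other filters, 492 mutant and 18 wild-type ones exceeded 10% mitochondrial UMIs and were dropped. Ptch1 read 184 CPM (the UMIs of a gene scaled to a common total per class) in mutant and 29.2 CPM in wild-type epithelium-like barcodes, and the Hedgehog target Gli1 19.9 and 2.18 CPM. A 3′ tag can lie outside the deleted part of Ptch1, so its level does not check the deletion. Emx2 read 32.0 CPM in mutant and 18.2 CPM in wild-type epithelium and under 1 CPM in mesenchyme and glia of both libraries, and macrophages of both held 0 UMIs of it.

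Cell classes were named from marker genes and are called like the type they resemble. Epithelium-like clusters carried Epcam at 1039 CPM in the mutant and 886 CPM in the wild type. The 10 mesenchymal markers summed to 6561 CPM in mutant and 8561 CPM in wild-type mesenchyme, against 185 and 1637 CPM in epithelium. The 8 neuronal markers summed to 14243 CPM in mutant and 8372 CPM in wild-type neurons, against 88.9 and 79.9 CPM in mesenchyme. The largest classes were epithelium-like (2067 mutant and 1502 wild-type barcodes), mesenchyme-like (5628 and 3223) and glia-like (450 and 436). Smaller classes were neuron-like (68 and 426), endothelium-like (119 and 137), macrophage-like (124 and 51) and pericyte- or smooth muscle-like (94 and 93). Erythroid-like barcodes numbered 51 and 111, and melanocyte- or intermediate cell-like ones 23 and 44. Within the epithelium, hair cell-like clusters held 2 mutant and 140 wild-type barcodes and marginal cell-like clusters 0 and 60, so these sub-types could be described in the wild type only. Member genes, mt- genes and the listed mitochondrial genes were kept out of the genes used for clustering.

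The most abundant members were small structural subunits and the catalytic and membrane parts of ATP synthase. Over all deposited barcodes the leading genes of complex V were Atp5e, the epsilon subunit, with 85285 mutant and 58195 wild-type UMIs, Atp5b, the catalytic beta subunit, with 51270 and 32459, and Atp5g2, a gene for the membrane c subunit, with 51971 and 30212. In complex IV they were Cox4i1 with 75582 mutant and 54703 wild-type UMIs, Cox6c with 79490 and 49453, and Cox7c with 73044 and 50685. Uqcrh, the hinge protein, led complex III with 53167 mutant and 40889 wild-type UMIs, followed by Uqcr11 with 27568 and 20828 and Uqcr10 with 27351 and 18380. Ndufa4 led the Nduf genes with 48965 mutant and 34232 wild-type UMIs, followed by Ndufa2 with 31706 and 22226 and Ndufa7 with 31653 and 22257. These are 3′ tag counts, 1 per captured molecule, so they do not scale with transcript length.

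RefSeq promoter windows (GRCm38.p6) matched 62 of the 76 members by symbol. In the 250 bases upstream of the annotated start, searched on both strands, the NRF1 motif, GCGCA and GCGC with 1 base between them, occurred in 11 of 62 members (17.7%, exact interval 9.20 to 29.5%) and in 4.23% of the 27025 genes with a window. The ETS-family motif CCGGAAG occurred in 11 of 62 members (17.7%) and in 7.83% of all genes, and the estrogen-related receptor motif AAGGTCA in 5 (8.06%) and 4.70%. The hypoxia-inducible factor core ACGTG occurred in 11 (17.7%) and 18.5%. A gene was counted once per motif over all its windows, so overlapping matches on both strands, as in CACGTG, count once. Windows at several starts were searched for 5 of the members. Of the 62 members 33 held none of the 4, and a match is a description of letters, not of a bound site. The windows below are shown because Cox5a, Atp5g3 and Cox6a1 had the highest ratios of neurons to mesenchyme in the mutant and Ndufa11 was among the highest in marginal cell-like barcodes, and because together they hold all 4 motifs. Capitals mark motif matches, and each reads 5′ to 3′ up to the base before the start. Cox5a lies at chr9:57520982-57521231 (plus strand), Ndufa11 at chr17:56717512-56717761 (plus), Cox6a1 at chr5:115348959-115349208 (minus) and Atp5g3 at chr2:73911327-73911576 (minus).
Cox5a: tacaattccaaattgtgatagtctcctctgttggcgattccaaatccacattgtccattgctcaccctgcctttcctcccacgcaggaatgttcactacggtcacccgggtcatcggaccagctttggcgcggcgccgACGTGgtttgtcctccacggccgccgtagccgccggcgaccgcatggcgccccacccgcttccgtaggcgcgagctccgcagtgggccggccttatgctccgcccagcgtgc
Ndufa11: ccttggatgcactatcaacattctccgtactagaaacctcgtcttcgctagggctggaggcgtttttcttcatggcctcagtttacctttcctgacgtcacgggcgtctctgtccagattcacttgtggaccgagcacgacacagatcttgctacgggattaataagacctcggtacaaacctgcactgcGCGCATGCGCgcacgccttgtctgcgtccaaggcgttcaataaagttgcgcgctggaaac
Cox6a1: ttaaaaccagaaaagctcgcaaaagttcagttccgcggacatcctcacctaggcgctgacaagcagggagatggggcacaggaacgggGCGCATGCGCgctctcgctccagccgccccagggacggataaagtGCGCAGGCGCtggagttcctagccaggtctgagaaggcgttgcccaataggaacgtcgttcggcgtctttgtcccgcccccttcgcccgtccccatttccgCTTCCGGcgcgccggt
Atp5g3: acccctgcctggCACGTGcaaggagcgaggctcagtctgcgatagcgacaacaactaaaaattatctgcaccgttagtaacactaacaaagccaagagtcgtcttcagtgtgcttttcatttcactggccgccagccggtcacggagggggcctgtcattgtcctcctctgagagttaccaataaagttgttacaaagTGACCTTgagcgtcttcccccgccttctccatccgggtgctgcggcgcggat

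Across cell classes the summed share of UMIs from the 76 genes was highest in marginal cell-like and neuron-like barcodes and lowest, apart from erythroid cells, in glia-like ones, with macrophages in the mutant and mesenchyme in the wild type next. Marginal cell-like barcodes of the wild type gave 3.70% of their UMIs (interval 3.65 to 3.75%) to these genes. Neuron-like barcodes gave 3.37% (3.34 to 3.40%) in the mutant and 3.39% (3.38 to 3.41%) in the wild type, values whose intervals overlap. Melanocyte- or intermediate cell-like barcodes followed with 2.77% in the mutant and 3.11% in the wild type, and wild-type hair cell-like barcodes with 2.75%. Pericyte- or smooth muscle-like barcodes had 2.44% in the mutant and 2.38% in the wild type, and endothelium-like ones 2.39% and 2.28%. Macrophage-like barcodes had 2.02% in the mutant and 2.38% in the wild type. Mesenchyme-like barcodes had 2.04% and 2.15%, and glia-like ones 1.99% and 2.06%, so macrophages were below mesenchyme in the mutant only. The macrophage-like class took in a shallow cluster of 31 mutant and 5 wild-type barcodes. Other clusters in it had Ccr2 and Ly6c2 (32 and 8 barcodes) or Trbc2 and Ighm (13 and 9) among their top genes. The part of this make-up in the difference was not tested. Erythroid-like barcodes stood apart with 0.235% in the mutant and 0.818% in the wild type, where haemoglobin made up 90.5% and 69.5% of UMIs.

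**Figure D1:**
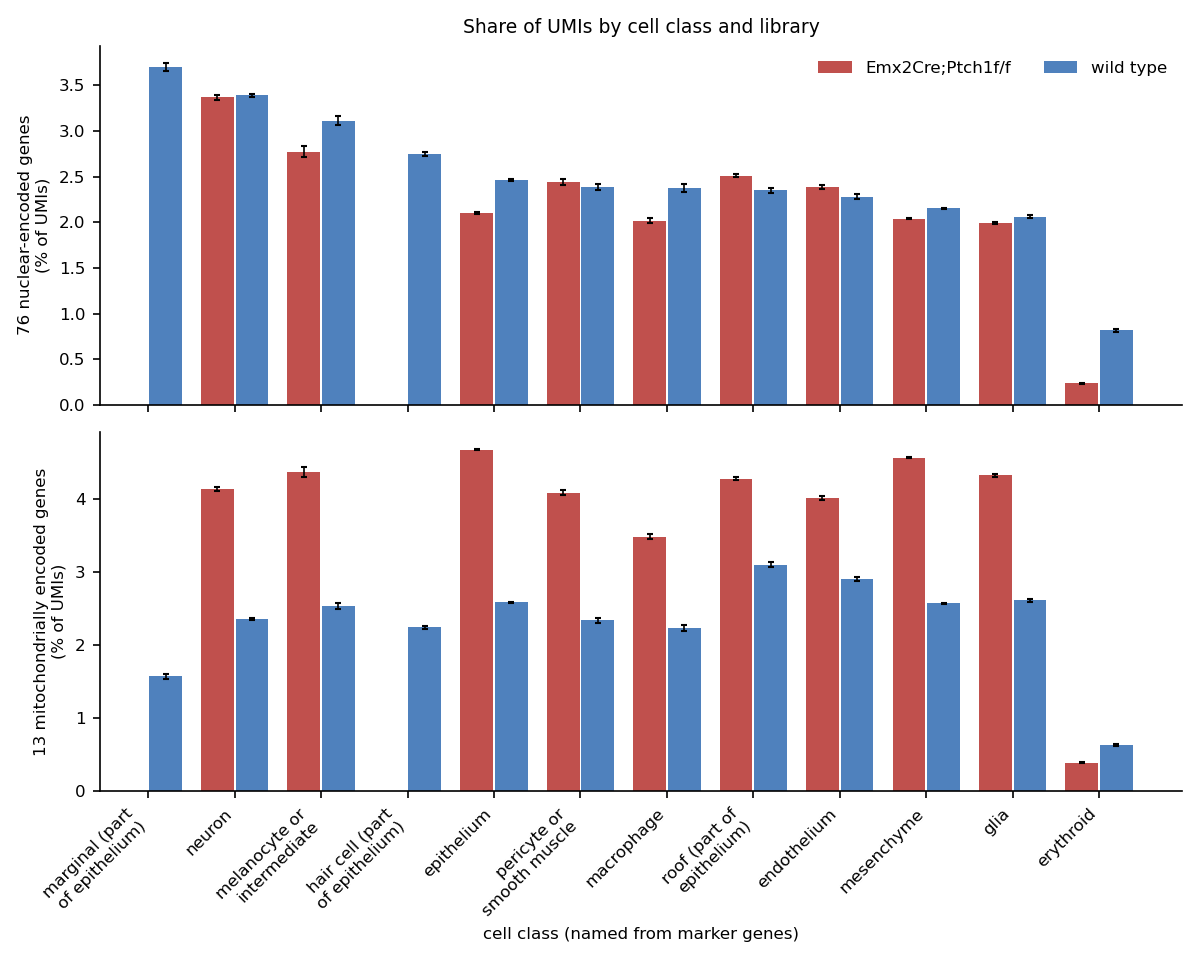
Share of UMIs from the 76 nuclear-encoded genes (top, %) and the 13 mitochondrially encoded genes (bottom, %) in each marker-named cell class, with bars for the Emx2Cre;Ptch1f/f library (red, left) and the wild-type library (blue, right) and 95% counting intervals. The nuclear share peaks at 3.70% in wild-type marginal cell-like barcodes, while the mt- share is higher in the mutant in every class drawn for both libraries except erythroid.

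Without mt-, ribosomal protein and haemoglobin UMIs in the denominator, the order of the leading wild-type classes was the same, with 4.85% in marginal cell-like, 4.27% in neuron-like and 4.06% in melanocyte- or intermediate cell-like barcodes. Glia-like barcodes were lowest in the wild type on that scale with 2.78%, and glia-like and macrophage-like ones shared the lowest value in the mutant, 2.74%. The erythroid-like share was 3.26% in the mutant and 3.72% in the wild type once haemoglobin was set aside, above mesenchyme in both libraries. Marginal cell-like barcodes also carried UMIs of all 7 melanocyte markers, summed to 2659 CPM, against 28249 CPM in wild-type melanocyte- or intermediate cell-like barcodes. Mesenchymal markers summed to 1281 CPM and neuronal ones to 388 CPM in marginal cell-like barcodes. In wild-type hair cell-like barcodes these sums were 1985 and 703 CPM, and haemoglobin made up 3.59% of UMIs. The part of such mixing in the level of either sub-type was not tested.

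Single barcodes gave the same picture once depth was made equal. After thinning every barcode to 2000 UMIs, the median number of the 76 genes detected was 42 in wild-type marginal cell-like and 35.5 in wild-type hair cell-like barcodes. It was 40 in mutant and 38 in wild-type neuron-like barcodes, and 28 in mutant and 29 in wild-type mesenchyme-like barcodes. Unthinned medians were 68 for marginal cell-like and 69 for hair cell-like barcodes, 71 and 59 for mutant and wild-type neurons, and 58 and 56 for mutant and wild-type mesenchyme. Thinning left out 503 mutant and 0 wild-type mesenchymal barcodes.

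Gene by gene, 10 wild-type classes of at least 50 barcodes were compared, without erythroid cells. The melanocyte- or intermediate cell-like class, with 44 barcodes, was thus left out. Whole epithelium was counted beside its hair cell-like, marginal cell-like and roof epithelium-like parts. Of the 76 members 40 peaked in marginal cell-like and 28 in neuron-like barcodes. The lowest class was glia-like for 25 members, mesenchyme-like for 17 and macrophage-like for 17. For most members the range was narrow, with a median ratio of highest to lowest class of 2.11 (interquartile range 1.92 to 2.38), and 4 members exceeded a ratio of 5. Below those 4 came Cox5a at 3.91, Ndufa4 at 3.57, Ndufa11 at 3.44, Ndufa5 at 3.14, Ndufv3 at 3.03 and Ndufb2 at 2.79, all but Cox5a named as complex I. The most even genes were Ndufa2, an accessory subunit of complex I, at 1.33, Atp5a1, the alpha subunit of ATP synthase, at 1.43, Cox7a2l, which helps to join complexes III and IV, at 1.52, Atp5g2 at 1.52 and Atp5h, the stalk subunit d, at 1.60. Cox7a2l peaked in wild-type glia-like barcodes, where it read 422 CPM in the mutant and 472 CPM in the wild type, against 277 and 310 CPM in mesenchyme. Atp5g2 was highest in macrophage-like barcodes in the wild type at 701 CPM, while in the mutant macrophages read 644 CPM and endothelium-like barcodes 799 CPM.

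The 4 genes over that ratio were all alternative forms of a subunit that other members supply more widely. Ndufa4l2, a homologue of Ndufa4 known as a target of hypoxia-inducible factors, read 743 CPM (810 UMIs) in mutant and 697 CPM (579 UMIs) in wild-type pericyte- or smooth muscle-like barcodes. Its next highest level was 56.2 CPM, in wild-type endothelium-like barcodes, and elsewhere it stayed under 10 CPM. It read 2.68 CPM in mutant and 3.74 CPM in wild-type mesenchyme and had 0 UMIs in wild-type hair cell-like barcodes, so the wild-type pericyte level was at least 481-fold higher than the level of 3 UMIs there. Ndufa4 itself had its lowest level in that same class, 302 CPM in the mutant and 280 CPM in the wild type, against 1032 and 1000 CPM in neurons. Pericyte-like barcodes were thus the only class of the 10 in which Ndufa4l2 exceeded Ndufa4, in either library. In GRCm38 coordinates Ndufa4l2 lies at chr10:127514967-127517154 (plus strand) and Ndufa4 at chr6:11900292-11907497 (minus strand). Mutant endothelium-like barcodes read 3.04 CPM of Ndufa4l2 and wild-type ones 56.2 CPM. The 9 pericyte markers summed to 31.9 CPM in the mutant and 366 CPM in the wild type in the same barcodes, and their part in the difference was not tested.

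Cox4i2, the form of subunit IV known from lung and oxygen-sensing cells, read 117 CPM in mutant and 92.7 CPM in wild-type pericyte- or smooth muscle-like barcodes. Its partner Cox4i1 read 975 CPM in the mutant and 1014 CPM in the wild type there and stayed between 742 and 1613 CPM in every class other than erythroid, so Cox4i1 was the more abundant form throughout. Wild-type hair cell-like barcodes came next with 22.2 CPM of Cox4i2 (46 UMIs), while the 9 pericyte markers summed to 22.7 CPM there with Rgs5, Kcnj8, Acta2, Myh11 and Higd1b at 0. In the same barcodes mesenchymal markers summed to 1985 CPM, neuronal ones to 703 CPM and endothelial ones to 128 CPM. The part of such mixing in the hair cell-like levels was not tested. Macrophage-like barcodes of both libraries held 0 UMIs of Cox4i2. Cox4i2 lies at chr2:152754173-152765037 and Cox4i1 at chr8:120668222-120674207, both on the plus strand.

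Over 20 class profiles of both libraries, the genes whose log2(CPM + 1) pattern was most like Ndufa4l2 were Abcc9 (Pearson r 0.97), Vtn (0.97), Higd1b (0.95), Foxs1 (0.95) and Kcnj8 (0.91). For Cox4i2 they were Gucy1a1 (0.91), Gucy1b1 (0.88), Rasl12 (0.88), Mgp (0.87) and Abcc9 (0.87). Abcc9 and Kcnj8 encode the subunits of a potassium channel typical of pericytes, and with Higd1b are among the markers that named the class. The profiles share libraries, and 2 of the 20 are of the pericyte-like class, where both genes were highest. How far these 2 profiles set the values was not tested.

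Cox7a1, the heart and skeletal muscle form of subunit VIIa, was highest in wild-type hair cell-like barcodes at 23.2 CPM (48 UMIs) and in marginal cell-like ones at 18.6 CPM (12 UMIs). The marker levels of other lineages given above for these 2 sub-types apply here too. It read 6.60 CPM in mutant and 15.1 CPM in wild-type epithelium as a whole, and 1.02 and 1.59 CPM in mesenchyme. The widespread form Cox7a2 read 373 CPM in mutant and 453 CPM in wild-type epithelium, and 772 and 759 CPM in neurons. Cox6b2, known from testis, was highest at 52.7 CPM in marginal cell-like barcodes, and read 20.3 CPM in mutant and 23.7 CPM in wild-type epithelium, against 420 and 549 CPM for Cox6b1. Wild-type endothelium-like barcodes had the least Cox6b2, 9.88 CPM. All 3 c subunit genes, which encode the same mature protein, were present in every class, and Atp5g2 was the most abundant of them in epithelium with 606 CPM in the mutant and 519 CPM in the wild type, against 292 and 370 CPM for Atp5g1 and 212 and 243 CPM for Atp5g3. In neurons Atp5g1 was the most abundant, with 673 CPM in the mutant and 640 CPM in the wild type. Atp5g3 read 560 and 510 CPM there and Atp5g2 473 and 524 CPM, so Atp5g3 was the higher of the pair in the mutant, while in the wild type their intervals overlapped.

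**Figure D2:**
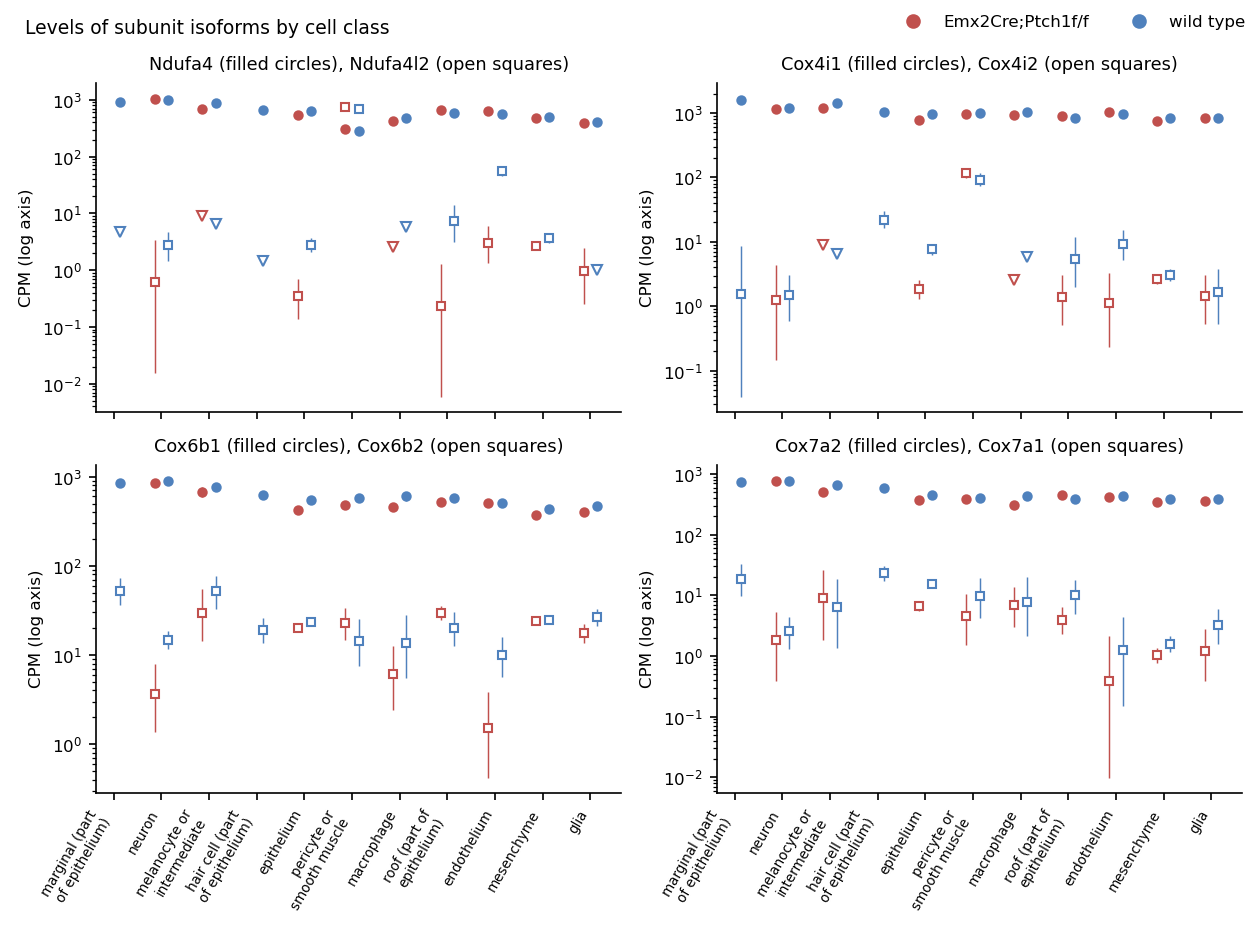
CPM (log axis) of 4 pairs of related subunit genes by cell class, with the Emx2Cre;Ptch1f/f library in red left of the wild-type library in blue, filled circles for the widespread form, open squares for the restricted form, 95% counting intervals, and triangles at the level of 3 UMIs where none was found. Ndufa4l2 passes Ndufa4 in pericyte- or smooth muscle-like barcodes only, at 743 and 697 CPM.

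Neurons were set against mesenchyme within each library, because both classes are large in the wild type and neither of their marker lists holds a member. The 10 mesenchymal markers summed to 150 CPM in mutant and 1851 CPM in wild-type neuron-like barcodes, against 6561 and 8561 CPM in mesenchyme itself, and the part of this mixing in the neuronal values was not tested. The median member was higher in neurons by 0.71 on the log2 scale in the mutant and by 0.66 in the wild type, with 69 and 71 of 76 members above 0, where the median of all genes with 50 UMIs was −0.12 and −0.03. At 1.5-fold or more, 47 of 76 members were higher in mutant and 41 of 76 in wild-type neurons, against 24.9% and 23.4% of all genes tested, and 3 and 2 members were lower, against 33.8% and 23.4%. Among genes at 100 CPM or more those shares were 31.2% and 22.6% higher and 23.3% and 18.8% lower. The lower members were Cox4i2 and Cox6b2 in both libraries and Ndufa4l2 in the mutant, chosen after their values were seen. Cox5a, a subunit of complex IV, led with 931 CPM in mutant neurons against 212 CPM in mutant mesenchyme, and with 740 CPM against 212 CPM in the wild type. Atp5g3 was next with a log2 ratio of 1.46 in the mutant and 1.28 in the wild type, followed in the mutant by Cox6a1 at 1.45 and in the wild type by Cox5b at 1.19 and Uqcrq, a small subunit of complex III, at 1.17. Ndufa2 and Ndufa13 were slightly lower in neurons, at −0.26 and −0.16 in the mutant and −0.23 and −0.11 in the wild type.

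The mt- genes did not share this difference. Of the 13, 12 were below 0 in neurons relative to mesenchyme in each library, with a median of −0.17 in the mutant and −0.32 in the wild type. The other mitochondrial lists had medians above 0 in both libraries. All 7 genes of the cytochrome c and carrier list were above 0 in each, with medians of 0.95 in the mutant and 0.89 in the wild type. Cycs, which encodes cytochrome c, read 433 CPM in mutant neurons against 141 CPM in mutant mesenchyme, and 375 against 130 CPM in the wild type. The TCA cycle list had 10 of 12 genes above 0 in the mutant and 11 of 12 in the wild type (medians 0.57 and 0.46), and all 4 genes of complex II were above 0 in both (medians 0.36 and 0.38). Mitochondrial ribosomal protein genes had medians of 0.21 and 0.18, with 61 and 59 of 78 above 0. The complex I assembly factors had 9 of 14 above 0 in each library (medians 0.22 and 0.31), 2 of them lower by 1.5-fold in the mutant, and the complex IV assembly factors 13 and 12 of 17 (0.31 and 0.33). Cytosolic ribosomal protein genes went the other way, with 85 of 91 below 0 in the mutant and 86 of 92 in the wild type.

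Among the 12 of 13 regulators of mitochondrial genes with 50 UMIs, 4 were higher by 1.5-fold in neurons in each library, and 4 in the mutant and 3 in the wild type were lower. Esrrg, an orphan nuclear receptor that binds the estrogen-related receptor motif, read 92.8 CPM in mutant neurons against 1.32 CPM in mesenchyme, and 61.1 against 0.906 CPM in the wild type. Ppargc1a, its coactivator, read 48.6 against 0.939 CPM in the mutant and 30.5 against 0.868 CPM in the wild type. Nrf1 was lower in neurons, 18.4 against 41.0 CPM in the mutant and 18.6 against 33.2 CPM in the wild type, and Gabpa was as well, 15.4 against 32.1 and 17.8 against 30.9 CPM.

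Marginal cell-like barcodes were set against the rest of the wild-type epithelium, the tissue they belong to. Of 75 members with at least 50 UMIs, 73 lay above 0, and the median log2 ratio was 0.60, where that of all genes was −0.17 and that of genes at 100 CPM or more was 0.10. At 1.5-fold or more, 38 members were higher, against 12.0% of all genes, and 1, Cox4i2, was lower with 1 UMI in marginal cell-like barcodes, against 29.8%. Among genes at 100 CPM or more the shares were 16.6% and 11.2%. Cox6b2, Cox5a and Ndufa11 had the highest ratios, the last with 510 CPM (log2 ratio 1.02) in marginal cell-like barcodes against 250 CPM elsewhere in the epithelium. All 8 members of complex III and all 17 of complex V lay above 0, with medians of 0.66 and 0.61, and complexes I and IV had medians of 0.51 and 0.69. All 13 mt- genes lay below 0, 12 of them lower by 1.5-fold or more, with a median of −0.96, and the mt- share was 1.57% in marginal cell-like barcodes. These are 60 barcodes of 1 library, and the melanocyte, mesenchymal and neuronal marker levels given above apply to them.

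By genotype, the 76 genes were slightly lower in the mutant epithelium when its UMIs were pooled. Their summed share was 2.10% (2.09 to 2.11%) in the mutant and 2.46% (2.46 to 2.47%) in the wild type, a log2 ratio of −0.23. The median log2 ratio of CPM + 1 over the members was −0.22 with 73 of 76 below 0, where the median of all 13428 genes with 50 UMIs was 0.05 and that of the 1561 genes at 100 CPM or more was −0.01. Few single genes lay far from 0. At 1.5-fold or more 3 members were lower, against 10.7% of all genes, and 0 were higher, against 8.68%. Among genes at 100 CPM or more 4.74% were lower and 5.51% higher. The sign depended on how barcodes were weighted: with every barcode given equal weight the median was 0.0026 with 37 of 76 members below 0, where all genes had a median of −0.11, the summed share had a log2 ratio of 0.02, and the median share per barcode was 2.39% in the mutant and 2.42% in the wild type.

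Complex IV had the lowest epithelial median, −0.30 with 14 of 14 members below 0, and complexes I, III and V had −0.21, −0.23 and −0.19. The 3 members past 1.5-fold were all rare, restricted forms. Cox4i2 read 1.82 CPM (37 UMIs) in the mutant and 7.62 CPM (129 UMIs) in the wild type. Ndufa4l2 read 0.345 CPM (7 UMIs) in the mutant and 2.83 CPM (48 UMIs) in the wild type, and Cox7a1 6.60 CPM (134 UMIs) and 15.1 CPM (256 UMIs). The 9 pericyte markers summed to 73.8 CPM in the mutant and 57.7 CPM in the wild-type epithelium, with 2 of them at 10 CPM or more in each. Wild-type hair cell-like barcodes held 46 of the wild-type Cox4i2 UMIs and 48 of those of Cox7a1, and the mutant had 2 such barcodes. The part of pericyte mixing and of hair cell-like barcodes in these ratios was not tested.

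Among abundant members, the lowest were Ndufv3, an accessory subunit of the NADH-oxidising arm of complex I, with 116 CPM in the mutant and 173 CPM in the wild type (log2 ratio −0.57), and Ndufb2, of its membrane arm, with 131 and 192 CPM (−0.55). The highest were Atp5g2 with 606 and 519 CPM (0.22), Atp5k, the ATP synthase subunit e, with 462 and 426 CPM (0.12), and Ndufa10 with 154 and 142 CPM (0.11). Ndufs1, the largest iron-sulfur subunit of complex I, read 44.0 CPM in both libraries, and Uqcrc1, a core protein of complex III, 134 and 136 CPM. The counting intervals of the ratios of Atp5g2, Atp5k and Ndufa10 lay above 0 and that of Uqcrc1 spanned 0.

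**Figure D3:**
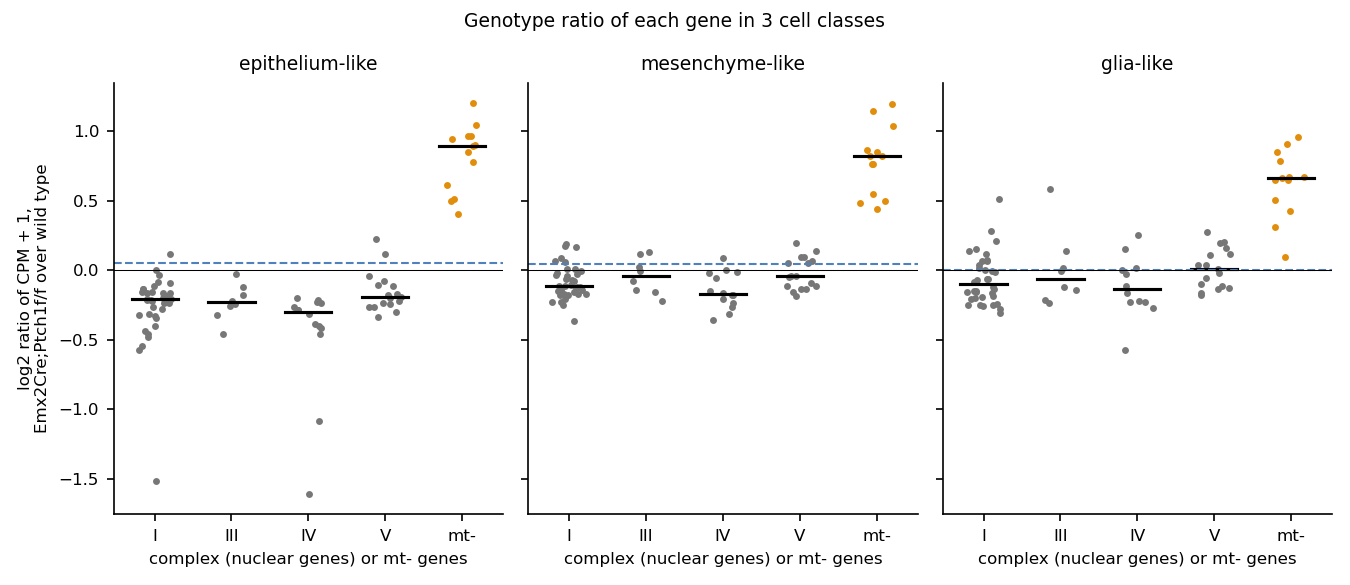
Log2 ratio of CPM + 1, Emx2Cre;Ptch1f/f over wild type, for each nuclear member by complex (grey points) and each mt- gene (orange) in 3 classes, with black bars for group medians and a dashed line for the median of all genes tested. In the pooled counts the epithelial members gather below 0, at a median of −0.22, and the mt- genes lie above 0 in all 3 classes.

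Depth of the barcodes went with these values. In mutant epithelium the 993 barcodes from 1000 to below 3352 UMIs, a range that holds no kept wild-type epithelial barcode, had a member share of 2.92%. From 3352 to below 6000 UMIs the share was 2.45% in the mutant and 2.35% in the wild type, from 6000 to below 10000 UMIs 1.95% and 2.50%, and from 10000 UMIs 2.01% and 2.47%. Thus the mutant was higher in the shallow bin shared by both libraries and lower in the 2 deeper ones. In mesenchyme the mutant was lower in all 3 shared bins, with 2.06% against 2.12%, 1.97% against 2.14% and 2.04% against 2.19%, and its barcodes below 3352 UMIs stood at 2.81%. In glia the mutant was also lower in all 3, with 1.93% against 2.07%, 2.03% against 2.05% and 1.98% against 2.06%. Above the common floor of 3352 UMIs the epithelial median was −0.28 with 72 of 76 members below 0.

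**Figure D4:**
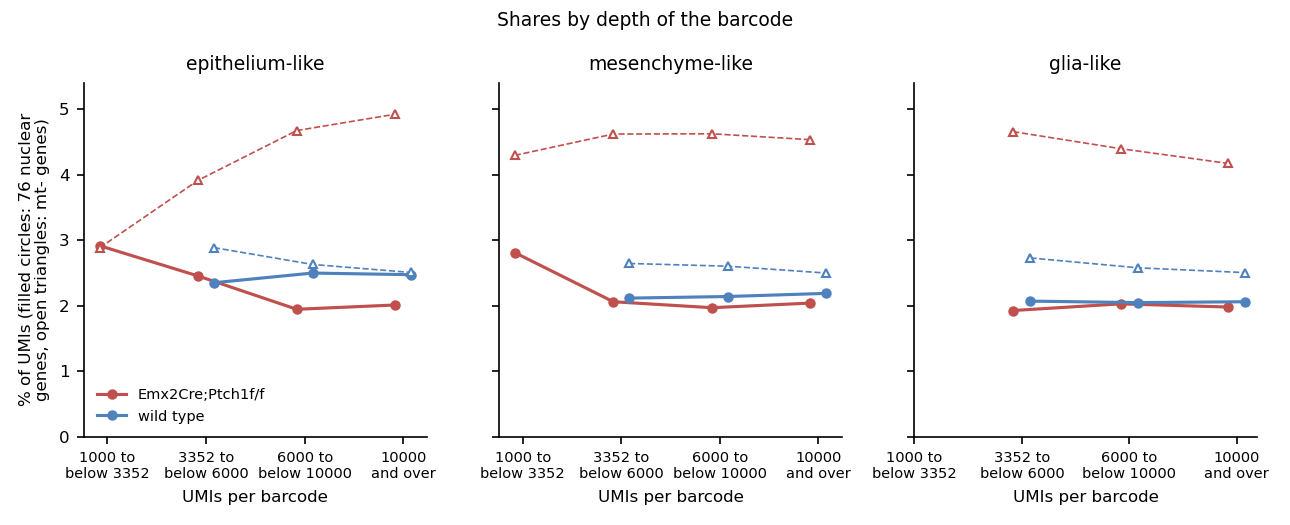
Share of UMIs (%) from the 76 nuclear genes (filled circles, solid lines) and the mt- genes (open triangles, dashed lines) by UMIs per barcode, for the Emx2Cre;Ptch1f/f library (red) and the wild type (blue) in 3 classes. The epithelial nuclear share of the mutant is 2.92% in its shallowest bin and 2.01% in its deepest, while the wild-type share stays between 2.35% and 2.50%.

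Several other measures differed between the epithelial classes of the libraries. Summed mesenchymal markers read 185 CPM in mutant and 1637 CPM in wild-type epithelium, haemoglobin made up 0.0248% and 0.499% of UMIs, and 33.6% of mutant and 58.7% of wild-type epithelial barcodes carried over 5 UMIs per 10000 from genes of other lineages. Without those barcodes the epithelial median was −0.11 with a summed log2 ratio of −0.14. That screen held no neuronal markers, which summed to 35.0 CPM in mutant and 432 CPM in wild-type epithelium. The libraries also hardly shared epithelial clusters: only 3 clusters had 50 barcodes of each, with 683 of 2067 mutant (33.0%) and 394 of 1502 wild-type barcodes (26.2%). Giving these 3 equal weight brought the median to −0.10. Without hair cell-like and marginal cell-like barcodes it was −0.17. The part of composition, depth and mixing in the full difference was not tested.

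In mesenchyme the difference was smaller. The median member ratio was −0.11 with 57 of 76 below 0, where all genes had a median of 0.04, and at 1.5-fold 0 members were higher and 0 lower, against 2.71% and 2.73% of all genes and 1.63% and 2.7% of those at 100 CPM or more. The lowest were Ndufa4l2 at −0.37 (2.68 and 3.74 CPM), Cox7a1 at −0.36, Cox6a1 at −0.31 (183 CPM in the mutant and 227 CPM in the wild type), Cox8a at −0.27 (591 and 712 CPM) and Ndufa1 at −0.25 (138 and 164 CPM). The highest were Atp5k at 0.19 (474 and 415 CPM), Ndufs3 at 0.19, Ndufv1, the NADH-binding subunit, at 0.17, Ndufa10 at 0.16 and Atp5c1, the gamma subunit of the ATP synthase rotor, at 0.14. With equal weight per barcode the mesenchymal median was −0.02.

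In glia 73 members had at least 50 UMIs. Their median ratio was −0.07 with 46 below 0, where all genes had a median of 0.00, and at 1.5-fold 1 member was higher and 0 lower, against 4.78% and 3.73% of all genes and 1.83% and 2.5% of those at 100 CPM or more. That member was Uqcrc1, with 131 CPM (550 UMIs) in the mutant and 86.7 CPM (263 UMIs) in the wild type, a log2 ratio of 0.59 whose counting interval ran from 0.38 to 0.81. The count of higher members was 0 with mitochondrial UMIs limited to 5% or to 20%, with median-of-ratios scaling, with a pseudocount of 5 CPM and with equal weight per barcode. Ndufv1 followed at 0.51 with 104 CPM in the mutant and 72.5 CPM in the wild type, then Ndufs3 at 0.28, Atp5k at 0.27 and Cox5a at 0.25. The lowest were Cox6b2 at −0.58 (17.6 CPM, 74 UMIs, and 26.7 CPM, 81 UMIs), Ndufa5 at −0.30, Ndufa1 at −0.28, Cox8a at −0.27 and Ndufb6 at −0.26. Atp5k was thus above 0 and Cox8a below 0 in all 3 large classes.

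In roof epithelium-like barcodes, part of the epithelium, 73 members had at least 50 UMIs and their median ratio was 0.10 with 20 below 0. Mesenchymal markers summed to 287 CPM in mutant and 1320 CPM in wild-type roof barcodes, neuronal markers to 20.4 and 609 CPM and melanocyte markers to 174 and 25.5 CPM, and their part in the ratio was not tested. Median depth was 2538 UMIs in mutant and 6206 UMIs in wild-type roof barcodes, and its part was not tested either. At 1.5-fold 0 were higher and 0 lower, against 8.81% and 12.7% of all genes and 4.98% and 8.9% of those at 100 CPM or more. Atp5k again had the highest ratio, 0.56, with 566 CPM in the mutant and 384 CPM in the wild type. Of the mutant roof barcodes 277 lay in a cluster with 2 wild-type ones, and in the cluster that both libraries filled, with 97 and 109 barcodes, the median was 0.00. Median depth in that shared cluster was 21275 UMIs in the mutant and 6269 UMIs in the wild type.

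Within single clusters that held at least 50 barcodes of each library, the member share was lower in the mutant in 17 of 20, with 15 intervals wholly below 0 and 2 wholly above. Of 11 mesenchymal clusters 9 were below 0, ranging from −0.25 to 0.02, and the 3 epithelial ones ranged from −0.20 to −0.01. The mt- share was higher in the mutant in 19 of 20. The 20 include the erythroid cluster, at −1.80 for the members and −0.70 for the mt- genes. The median of all genes tested in that cluster was −2.21. Median depth was higher in the mutant in each of these clusters. It was 8367 UMIs in the mutant and 6320 UMIs in the wild type in the mesenchymal cluster of 1103 and 391 barcodes. The part of depth in the cluster ratios was not tested.

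**Figure D5:**
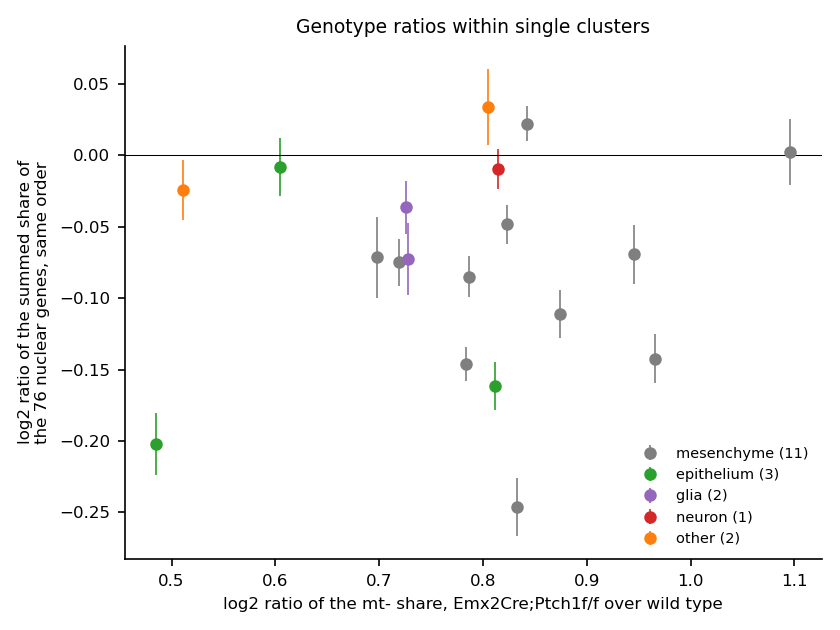
Log2 ratio, Emx2Cre;Ptch1f/f over wild type, of the summed share of the 76 nuclear genes (vertical, 95% counting intervals) against that of the mt- share (horizontal) in 19 clusters with at least 50 barcodes per library, the erythroid one left out. All 19 lie to the right of 0 on the mt- axis and most lie just below 0 on the nuclear axis.

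In epithelium, mesenchyme and glia the 13 mt- genes differed between libraries more than their nuclear partners, and in the other direction. Their share was 4.67% in mutant and 2.58% in wild-type epithelium (log2 ratio 0.86), 4.57% and 2.57% in mesenchyme (0.83) and 4.32% and 2.61% in glia (0.73). It was higher in the mutant in 9 of 10 classes, the exception being erythroid-like barcodes with 0.390% and 0.634%. The nuclear share had the same sign as the mt- share in roof epithelium-like, endothelium-like and pericyte-like barcodes, where both were higher in the mutant. As shares of all UMIs, both were lower in erythroid-like barcodes, with log2 ratios of −1.80 for the nuclear and −0.70 for the mt- genes. Haemoglobin made up 90.5% of mutant and 69.5% of wild-type UMIs in that class, and the median of all genes tested was −2.21. There were 1.66 mt- UMIs per member UMI in the mutant and 0.776 in the wild type. The part of haemoglobin in both ratios was not tested. The classes with a higher mt- share included neurons (4.13% and 2.35%), pericytes (4.09% and 2.34%) and macrophages (3.48% and 2.23%). All 13 genes were above 0 in each large class. The filter at 10% mitochondrial UMIs bounds these values, and with a limit of 5% the epithelial ratio was 0.51 and with 20% it was 1.00. The libraries also differ in the labelled kit and in the software version of the file headers. None of these, nor library-wide RNA quality, can be told apart from genotype here.

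Single mt- genes kept a similar order. mt-Co1, of complex IV, had the highest ratio in all 3 classes, with 5496 CPM in mutant and 2387 CPM in wild-type epithelium (1.20). Its levels were 4381 CPM in mutant and 1913 CPM in wild-type mesenchyme (1.20), and 4620 CPM and 2375 CPM for glia (0.96). mt-Cytb, the only mitochondrially encoded subunit of complex III, was among the lowest with 6293 and 4426 CPM in epithelium (0.51), and ratios of 0.50 in mesenchyme and 0.50 in glia. mt-Nd5 and mt-Nd6 of complex I had ratios of 0.49 and 0.40 in epithelium, and in glia the interval of mt-Nd5, at 0.10, spanned 0. For complex V, mt-Atp6 read 8139 CPM in mutant and 4521 CPM in wild-type epithelium (0.85), and mt-Atp8 183 and 88.1 CPM (1.04). In mutant epithelium there were thus 2.22 mt- UMIs per member UMI, and in the wild type 1.05. In wild-type marginal cell-like barcodes there were 0.425. Pearson r of the mt- and member shares was taken over classes without erythroid cells and without epithelium as a whole, its sub-types kept. It was 0.11 in the mutant (8 classes) and −0.67 in the wild type (10 classes), a description of points that share a library and differ in depth.

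The other mitochondrial lists differed less between genotypes in epithelium. Complex II had 3 of 4 genes below 0 with a median of −0.12, the complex I assembly factors 10 of 14 below 0 (−0.10), the complex IV assembly factors 12 of 17 (−0.14), cytochrome c and carriers 5 of 7 (−0.09) and the TCA cycle 8 of 12 (−0.04). Mitochondrial ribosomal protein genes had 44 of 78 below 0 (−0.03) and cytosolic ones 69 of 91 (−0.11). Glycolysis genes had 11 of 17 below 0 (−0.12), 2 of them lower by 1.5-fold and 1 higher, and Ldha, lactate dehydrogenase A, read 466 CPM in the mutant and 633 CPM in the wild type. Among the 13 regulators 8 were above 0 (median 0.13). Nrf1 read 43.1 CPM in the mutant and 25.2 CPM in the wild type (0.76), while Esrrb, a marginal cell marker used for naming, read 0.739 and 8.56 CPM and Esrrg 0.739 and 2.89 CPM. In mesenchyme, where 57 of 76 members lay below 0, the TCA cycle list had 11 of 12 genes above 0 (median 0.11), cytochrome c and carriers 6 of 7 (0.13) and complex II 2 of 4 (0.02). The complex I assembly factors had 9 of 14 below 0 there (−0.05) and the complex IV assembly factors 13 of 17 (−0.05), and 38 of 78 mitochondrial ribosomal protein genes were below 0 (0.00).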

How the data were processed

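UMI counts per gene and barcode were used as the authors deposited them. The file headers name Cell Ranger 5.0.1 for the mutant and 6.0.0 for the wild type, the submitters' processing notes name 6.0.0 and mm10 for both, and the label descriptions give kit v3.2 for the mutant and v3.1 for the wild type; the sources used here do not give the cell calling. Barcodes with at least 1000 UMIs, 500 genes and at most 10% mitochondrial UMIs were kept. A doublet caller marked 0 barcodes in either library, so the 703 mutant and 332 wild-type barcodes with the highest doublet scores (0.8% per 1000 barcodes) were removed. Clustering ran jointly on both libraries in scanpy 1.11.5 (Python 3.11.15; 2000 variable genes, 30 components, 15 neighbours, Leiden resolution 1), leaving out 239 genes including members and mt- genes.

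Clusters were named from at least 3 markers at 10 CPM by a rule settled after the clusters were seen. Counts were summed per library and class. Ratios are log2 of CPM + 1, mutant over wild type, for genes with at least 50 UMIs in the class. The genes named by genotype are the 5 highest and 5 lowest members per class, with the most and least even across classes, the 3 most abundant per complex and the isoform sets. Atp5if1 was not analysed here. Mixed barcodes carried over 5 UMIs per 10000 from genes of other lineages, which 1 UMI meets in a shallow barcode. These lists held 46 genes in all: collagen, endothelial, macrophage, erythroid, melanocyte and epithelial genes. A class with a list of its own was screened without it. Neuronal, glial and pericyte markers were not in the lists. Scripts were tested on simulated data. The members, lists and comparisons were chosen with earlier results of these data known. Columns of other series numbered 0.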

Additional observations from a re-analysis of the deposited data

Results flagged for a closer look

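The summed share of the 76 nuclear genes was higher in the mutant in 3 classes and lower in the others, epithelium, mesenchyme and macrophages among them, with an interval in neurons that spanned 0. The log2 ratio, mutant over wild type, was 0.094 in roof epithelium-like, 0.0657 in endothelium-like and 0.0341 in pericyte- or smooth muscle-like barcodes. These classes stand out by direction alone, and the difference from the other classes was not tested. In the endothelial cluster shared by both libraries the ratio was −0.02, and in the roof cluster that both filled it was −0.01. Roof barcodes had a median depth of 2538 UMIs in the mutant and 6206 UMIs in the wild type, and the part of depth was not tested.

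As a share of all UMIs, the mt- genes were lower in the mutant in erythroid-like barcodes, with a log2 ratio of −0.7004. Every other class lay above 0. Haemoglobin made up 90.5% of mutant and 69.5% of wild-type UMIs in erythroid-like barcodes. The median log2 ratio of all genes tested in that class was −2.2076. There were 1.66 mt- UMIs per member UMI in the mutant and 0.776 in the wild type. The difference of this class from the others, and the part of haemoglobin in it, were not tested.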

How the results depend on the processing

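The main log2 ratios, mutant over wild type, in epithelium, mesenchyme and glia were −0.22, −0.11 and −0.07 for the median member, −0.23, −0.08 and −0.05 for the summed member share, and 0.86, 0.83 and 0.73 for the mt- share. With equal weight per barcode the epithelial median turned to 0.0026 and the summed share to 0.0164, and the cause was not tested; the epithelial mt- ratio was 0.5163, the mesenchymal values were −0.02, −0.0087 and 0.8058 and the glial mt- ratio was 0.758. No other alternative changed the sign of a median or a share in these classes. The mt- ratio stayed above 0 under all of them.

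In epithelium the median, the summed share and the mt- ratio were −0.1353, −0.1609 and 0.5076 at most 5% mitochondrial UMIs, −0.31, −0.3086 and 1.0036 at most 20%, −0.2801, −0.283 and 0.9064 above the common UMI floor, and −0.2842, −0.2874 and 0.8801 with doublets kept. They were −0.1124, −0.1361 and 0.6345 without mixed barcodes, −0.2793, −0.2848 and 0.8 with median-of-ratios scaling, −0.2659, −0.2675 and 0.8923 at Leiden resolution 2, and −0.2707, −0.272 and 0.884 with members among the variable genes. A gate on Epcam or Cdh1 gave −0.1791, −0.1967 and 0.6846. Of the alternatives chosen after seeing the data, leaving out hair cell-like and marginal cell-like barcodes gave −0.1673, −0.1712 and 0.804, and shared clusters with equal weight −0.0993, −0.119 and 0.6393.

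In mesenchyme the summed share and the mt- ratio were −0.1035 and 0.6216 at most 5% mitochondrial UMIs, −0.0933 and 0.8108 with doublets kept, −0.0661 and 0.8189 without mixed barcodes, −0.126 and 0.7817 with median-of-ratios scaling (median −0.1533), −0.074 and 0.8079 at resolution 2, −0.0854 and 0.8151 with members among the variable genes and −0.0896 and 0.8524 in shared clusters. The summed share was −0.1094 at most 20% mitochondrial UMIs and −0.0959 above the common floor. In glia the summed share was −0.0662 and the mt- ratio 0.6418 at most 5% mitochondrial UMIs, and −0.0159 and 0.7589 without mt-, ribosomal and haemoglobin genes. The glial mt- ratio was 0.7562 with doublets kept and 0.7796 without mixed barcodes.

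The 3 epithelial members lower by 1.5-fold became 5 above the common floor, 5 with median-of-ratios scaling, 1 in shared clusters, 19 under the looser of the other fold rules tried and 0 among members at 20 CPM or more. In mesenchyme 0 became 1 at most 20% mitochondrial UMIs, 1 in shared clusters and 2 under the looser fold rule. In glia the 0 lower members became 1 at most 20% mitochondrial UMIs, without mixed barcodes, with no filter, with equal weight and under the looser fold rule. The 1 higher glial member became 2 without mixed barcodes, with no filter and under the looser fold rule. It became 0 at most 5% or 20% mitochondrial UMIs, with median-of-ratios scaling, a pseudocount of 5, equal weight or the 2-fold rule.

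No paired analysis was possible because each genotype has 1 library. Leaving out a replicate could not be done for the same reason. Counting error is small in the large classes, so it is not what limits these comparisons. Marginal cell-like and hair cell-like barcodes were too few in the mutant for any comparison, and restricted members such as Ndufa4l2 rest on few UMIs outside pericytes.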
